A study of Mus musculus with 25 samples.

Results

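Acute phase proteins are plasma proteins that the liver releases in larger or smaller amounts after injury or infection. The 10 genes described here encode serum amyloid A (Saa1, Saa2, Saa3, Saa4), the alpha-1-acid glycoproteins (Orm1, Orm2), the haemoglobin and haem carriers haptoglobin (Hp) and hemopexin (Hpx), serum amyloid P component (Apcs) and inter-alpha-trypsin inhibitor heavy chain 4 (Itih4). Chosen were all probe sets that the array's annotation assigns to exactly 1 of these symbols, 12 of the 45037 probe sets other than controls. Saa1 and Saa4 had 2 sets each and the other 8 genes had 1 each.

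The arrays measured total RNA of C57/B6 mouse liver at 14 stages: embryonic days E11.5 to E18.5, the day of birth (Day0), 3, 7, 14 and 21 days after birth, and adults of 18 weeks. The labels name no treatment and no genetic change. Each stage was 1 pool, made from 12 livers for E11.5, 9 each for E12.5 and E13.5, 6 each for E14.5 and E15.5 and 3 for every later stage. Of the 14 stages 11 had 2 arrays, which the design text calls technical repeats, and E18.5, Day7 and Day14 had 1. The spread between arrays of a stage is therefore technical, and no value here measures how livers of the same age differ. The hepatocyte product albumin (Alb) lay between 12.73 log2 units at E11.5 and 14.49 at Day14, among the bright sets at every stage.

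In the acute phase response, cytokines of the interleukin-6 and interleukin-1 families reach the hepatocyte through their receptors, and the transcription factors STAT3, NF-kB and the C/EBP family raise the positive acute phase genes. Products of negative acute phase genes, such as albumin and transthyretin, fall at the same time. Saa1 and Saa2 proteins ride on high-density lipoprotein and are among the most inducible plasma proteins of the mouse, while Saa4 is known as the constitutive form. The fetal liver is also the site of blood formation, so its RNA comes from blood precursors as well as hepatocytes. In such bulk RNA fewer cells of a type and less RNA per cell cannot be told apart.

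Of the stages with 1 array, E18.5 and Day7 stood farthest from their neighbours over the whole table. The departure of a stage from the mean of the stages before and after it had a standard deviation over all sets of 0.42 log2 units at E18.5, 0.38 at Day7 and 0.35 at Day14, against 0.15 to 0.35 at the stages with 2 arrays, of which Day0, next to E18.5, was highest. At E18.5, 446 sets were at least 2-fold above both E17.5 and Day0. Of these 51.1% were also at least 2-fold higher at Day7 than at Day3, as were 2.64% of all sets; the shared sets made up 19.2% of the 1190 that rose so at Day7. The correlation of the E18.5 departure with Day7 or Day14 over the 45037 sets was computed in 4 ways, chosen after the data were seen, and lay between 0.38 and 0.55. Measured as departures at both stages it was 0.44, second of 45 pairs of stages, with the other 44 between -0.36 and 0.48. Of 9 skeletal muscle markers 5 were called higher at E18.5 than at E17.5, against 2.32% of all genes (1 set per gene). At Day0 5 were called lower than at E18.5, against 2.25% of all genes. The mean of that list was 6.96 log2 units at E18.5 against 5.23 to 5.55 at the other stages. Marker lists also moved between Day3 and Day7. The stellate and mesenchymal mean went from 8.06 to 8.66, and that of epithelium of other organs from 5.80 to 6.46. The macrophage mean went from 9.15 to 9.85 and the erythroid mean from 9.67 to 7.99. The part of these shifts in the values below was not tested. The members' values around E18.5 are therefore set beside Day0 minus E17.5, and those around Day7 and Day14 beside Day21 minus Day3, which use stages with 2 arrays. A step into or out of Day14, taken by itself, has no such counterpart.

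**Figure D1:**
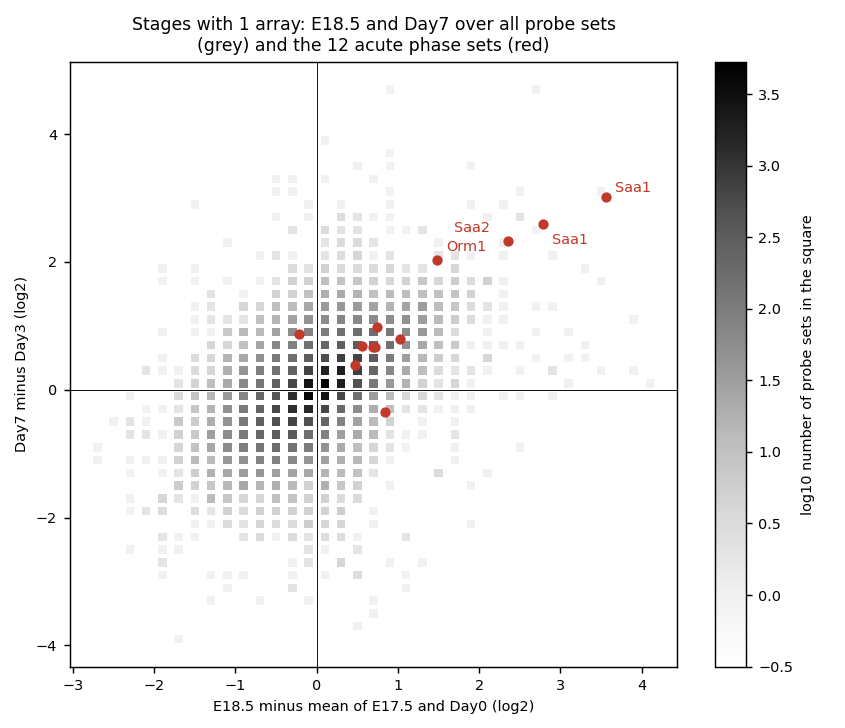
E18.5 minus the mean of E17.5 and Day0 (horizontal, log2 units) against Day7 minus Day3 (vertical, log2 units), with grey squares for the number of probe sets (log10) and red points for the 12 acute phase sets; of the 4 correlations computed between E18.5 and later single-array stages, this pairing gave the highest, 0.55. Both Saa1 sets, Saa2 and Orm1 lie at the upper right, among the sets that were high at both stages.

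Values below are intensities on a linear scale, as deposited, and changes are in log2 units with the standard error of the fit. A set was called at a change of at least 1 log2 unit and a Benjamini-Hochberg adjusted p under 0.05 in limma, adjusted over all 45037 sets. Steps between stages were fitted on the 25 arrays. Their errors reflect technical repeats only, and a stage with 1 array was assumed to vary like the others. No detection call was used, so for sets below the 25th percentile of their array the level, and any fold against it, is uncertain at every stage.

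**Figure D2:**
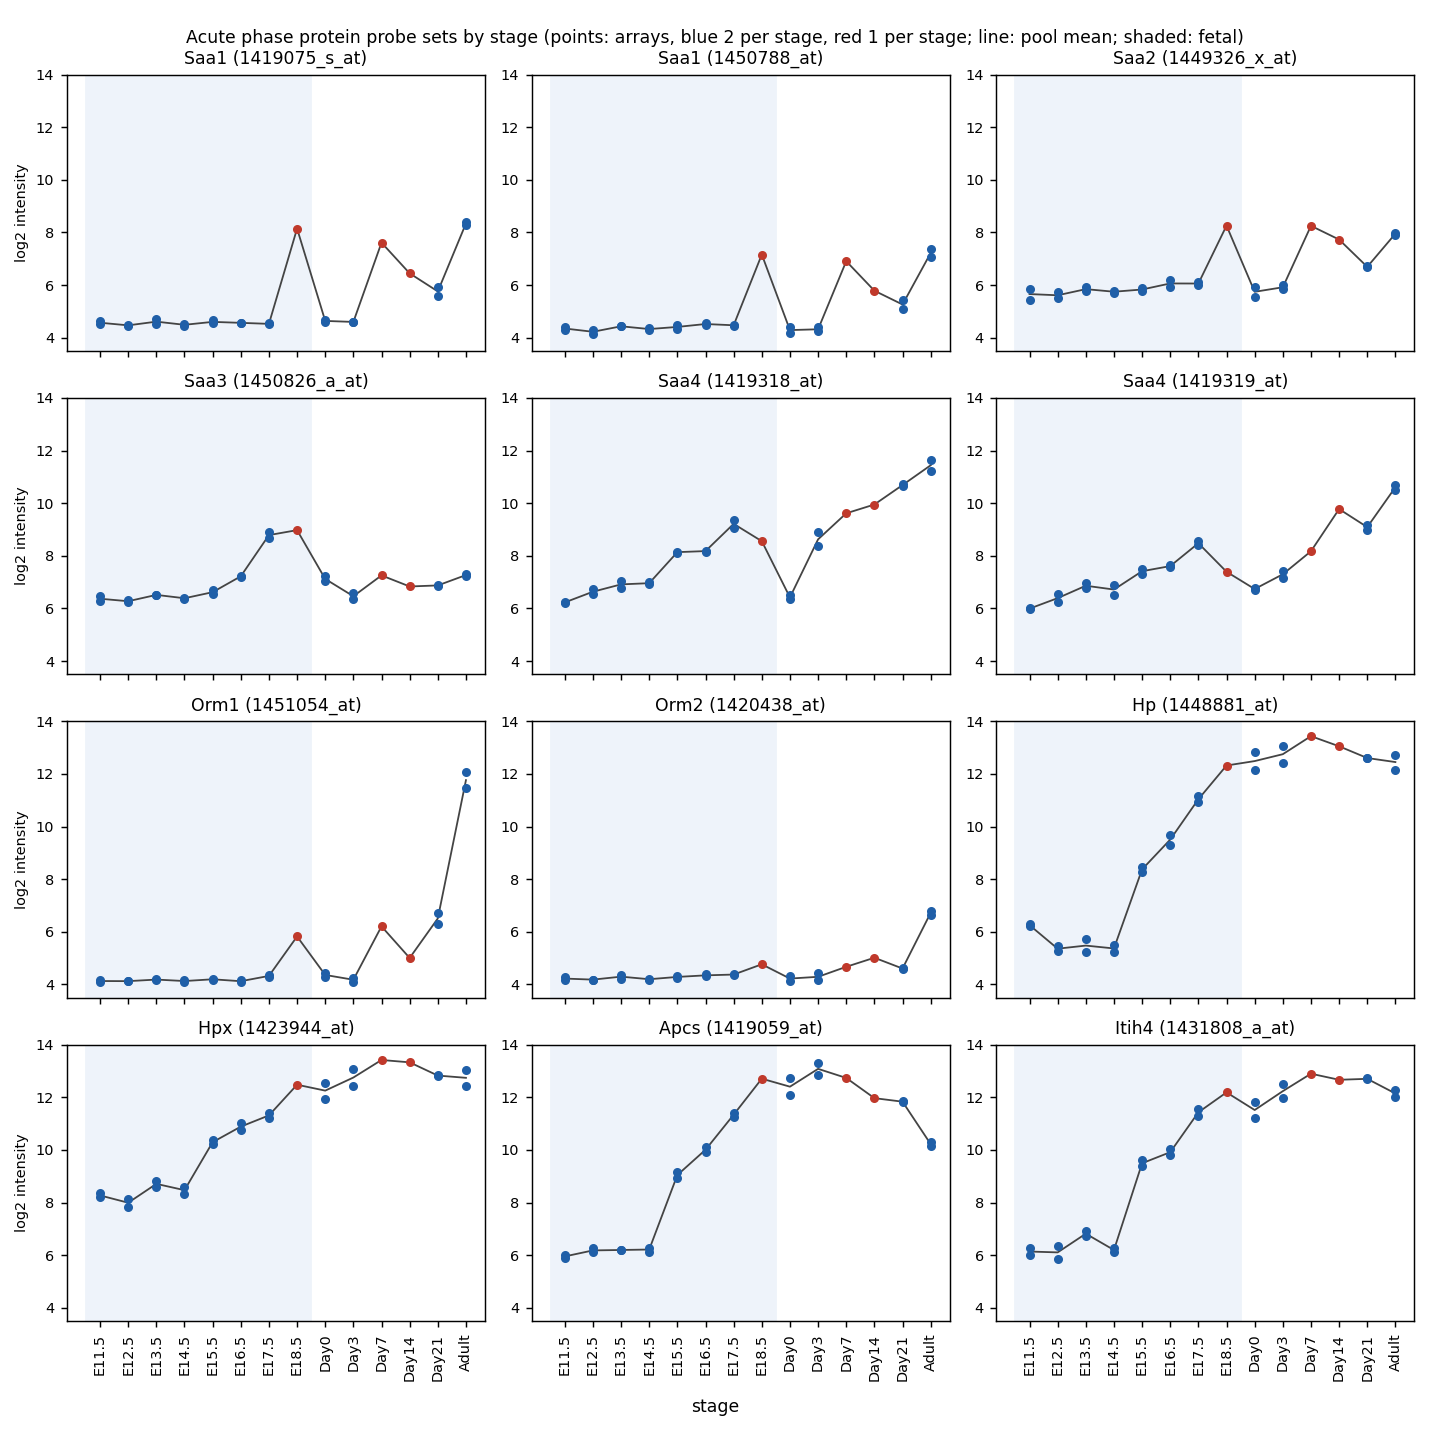
Log2 intensity (vertical) of the 12 acute phase probe sets at the 14 stages (horizontal); points are arrays, blue where a stage had 2 and red where it had 1, the line joins stage means and shading marks fetal stages. Hp, Hpx, Apcs and Itih4 climb from E15.5, the Saa1, Saa2 and Orm1 sets peak at E18.5, Day7 and in adults, and Saa4 dips at Day0.

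Hp, Hpx, Apcs and Itih4 rose together before birth. At E15.5 these 4 and Saa4 were called higher than at E14.5, 5 of the 12 sets, against 0.837% of all sets called higher and 1.13% lower at this step. Hp, whose product binds free haemoglobin, had 356 and 309 units on the E15.5 arrays, against 45.0 and 37.9 at E14.5. The arrays of the stages did not overlap, and the step was 3.01 ± 0.25 log2 units (limma, adjusted p = 3.63e-06). Hp went on to 830 and 637 at E16.5, 2277 and 1943 at E17.5 and 5113 at E18.5. After birth Hp stayed between 4535 and 11075 on all 10 arrays, with its highest value on the single Day7 array. That array is labelled replicate 1, and replicate 1 had the higher Hp value at 9 of the 11 stages with 2 arrays.

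Hpx, which carries free haem to the liver, was already brighter than Hp early on, but levels of different probe sets cannot be set against each other. Its own 8 arrays from E11.5 to E14.5 ranged from 229 to 457 with a median of 324. It measured 1320 and 1196 at E15.5, against 389 and 324 at E14.5, a step of 1.82 ± 0.24 log2 units (limma, adjusted p = 1.78e-04). Its later rise was spread out: 2088 and 1714 at E16.5, 2744 and 2356 at E17.5 and 5705 at E18.5, of which only the last step was called. The highest Hpx value was again that of Day7, 10948.

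Apcs encodes a pentraxin that is a main acute phase reactant of the mouse. Its 8 arrays up to E14.5 lay between 59.7 and 78.4, and at E15.5 it reached 578 and 485, against 78.4 and 70.5 at E14.5 (2.83 ± 0.18 log2 units, limma, adjusted p = 1.85e-07). It had 2736 and 2453 at E17.5, 6690 at E18.5, 6763 and 4343 at Day0 and 10184 and 7372 at Day3. Apcs was then called lower with age: 3727 and 3574 at Day21, against 10184 and 7372 at Day3 (-1.25 ± 0.18, limma, adjusted p = 1.12e-04), and 1143 and 1249 in adults, against 3727 and 3574 at Day21 (-1.61 ± 0.18, adjusted p = 3.33e-05). At the adult step Hp changed by -0.15, Hpx by -0.09 and Itih4 by -0.56, none of them called. Whether Apcs differed from them was not tested.

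Itih4, a plasma protein of the inter-alpha-trypsin inhibitor heavy chain family, had the largest E15.5 step of the 12 sets. It measured 779 and 667 at E15.5, against 77.7 and 69.3 at E14.5 (3.30 ± 0.22 log2 units, limma, adjusted p = 3.05e-07). It then had 3030 and 2513 at E17.5, against 1043 and 893 at E16.5 (1.52 ± 0.22). The 10 arrays after birth lay between 2360 and 7626. Of its relatives Itih1, Itih2 and Itih3 were called higher at the same E15.5 step, by 1.29, 1.18 and 2.74. These were 3 of the 6 genes listed for the family, its partner bikunin and Tnfaip6. None was lower, and of all genes (1 set per gene) 1.29% were higher and 1.17% lower.

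At E17.5, 5 of the 12 sets were called higher than at E16.5, and 0 lower, against 0.431% and 0.0333% of all sets: Itih4, Hp, Apcs, Saa3 and 1 Saa4 set. The steps of Hp (1.53 ± 0.25), of Itih4 and of the Saa4 set lost their call when E16.5 replicate 2 or E17.5 replicate 1 was left out, with values no lower than 0.89. At E18.5, with 1 array, 7 sets were called higher and 1 lower than at E17.5, against 1.9% and 1.67% of all sets. Among them were Hp (1.28 ± 0.31), Hpx (1.17 ± 0.29) and Apcs (1.37 ± 0.22). All 3 lost that call under quantile normalisation, at 0.82, 0.74 and 0.98, and Hpx also without E17.5 replicate 2 (1.06, adjusted p = 0.0551 in limma). With stages of 2 arrays, Day0 minus E17.5, a comparison made on its own after the data were seen, Hp (1.45 ± 0.25) and Apcs (1.07 ± 0.18) were called higher, 2 of 12 sets against 1.89% of all, and Hpx (0.94 ± 0.24) and Itih4 (0.09 ± 0.22) were not.

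Saa1 and Saa2 followed another course. Their genes lie on chromosome 7 and are near copies: the 250 bases before their starts were 94.8% identical over 251 aligned columns, whereas the other pairs of Saa promoters shared 43.8% to 48.5%. One Saa1 set, 1419075_s_at, is Saa1 by its Entrez identifier, but its accession belongs to Saa2 in RefSeq, and the Saa2 set carries the suffix x, which marks probes that can cross-hybridise. The 3 sets are thus read together as Saa1 and Saa2. The promoters are shown because the sets of these 2 genes had nearly the same course, while those of Saa3 and Saa4 were less like them. Since the Saa1 and Saa2 sets may detect both genes, their likeness does not show that the 2 genes run alike. They are RefSeq sequences of GRCm38.p6, given 5′ to 3′ on the gene's strand, Saa1 at chr7:46742981-46743230 (minus), Saa2 at chr7:46751583-46751832 (plus), Saa3 at chr7:46715677-46715926 (minus) and Saa4 at chr7:46732604-46732853 (minus). Capitals mark letters that match a C/EBP motif (TTNNGNAA) or a kB motif (GG, any 3 bases, then TTTCC) on either strand.
Saa1: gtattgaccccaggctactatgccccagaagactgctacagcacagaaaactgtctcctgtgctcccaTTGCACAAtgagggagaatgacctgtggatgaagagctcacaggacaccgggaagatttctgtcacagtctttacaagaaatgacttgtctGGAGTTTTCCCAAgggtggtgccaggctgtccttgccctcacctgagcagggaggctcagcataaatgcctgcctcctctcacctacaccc
Saa2: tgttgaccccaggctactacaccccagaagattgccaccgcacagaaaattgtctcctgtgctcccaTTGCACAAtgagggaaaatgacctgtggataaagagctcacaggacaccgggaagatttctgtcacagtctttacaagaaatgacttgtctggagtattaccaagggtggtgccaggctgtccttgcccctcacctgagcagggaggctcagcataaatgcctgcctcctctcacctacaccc
Saa3: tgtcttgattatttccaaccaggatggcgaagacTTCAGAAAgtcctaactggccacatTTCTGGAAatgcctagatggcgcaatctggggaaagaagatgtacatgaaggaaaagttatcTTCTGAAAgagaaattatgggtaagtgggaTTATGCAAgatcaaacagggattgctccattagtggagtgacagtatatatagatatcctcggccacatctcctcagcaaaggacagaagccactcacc
Saa4: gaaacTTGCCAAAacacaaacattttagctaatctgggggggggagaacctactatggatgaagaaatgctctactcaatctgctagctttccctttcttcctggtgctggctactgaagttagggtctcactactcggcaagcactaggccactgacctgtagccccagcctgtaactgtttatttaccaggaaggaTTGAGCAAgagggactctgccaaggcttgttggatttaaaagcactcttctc

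The C/EBP letters occurred 2 times in the Saa1 window, 1 time in Saa2, 4 times in Saa3 and 2 times in Saa4, and 36.8% of 32851 RefSeq promoter windows of this length held them. The kB letters occurred 1 time, in Saa1, starting 91 bases before the start and overlapping a C/EBP match by 5 bases, and 4.63% of windows held them. STAT letters (TTCNNNGAA) were in none of these 4 windows, in 1 copy each in those of Apcs and Itih4, and in 7.02% of all. The 3 motifs were written down after the promoters had been read, and the kB letters were chosen so that they take in the Saa1 match, so the difference between Saa1 and Saa2 at that place says nothing about either gene.

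On the 14 arrays from E11.5 to E17.5 both Saa1 sets were below the 25th percentile of their array. The set 1419075_s_at ranged from 21.97 to 26.1 and 1450788_at from 17.8 to 23.5, while Saa2 lay between 43.7 and 72.6. At E18.5 they measured 283, 143 and 306. The steps from E17.5 were 3.62 ± 0.12, 2.69 ± 0.15 and 2.20 ± 0.18 log2 units (limma, adjusted p = 1.06e-10, 5.30e-08 and 2.31e-06). All 3 were then back at Day0, where the arrays had 24.2 and 25.6, 18.1 and 21.1, and 47.0 and 61.1 for the sets in the same order. At this step 6 of the 12 sets were called lower and 0 higher, against 1.77% and 2.98% of all sets.

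The E18.5 values came from 1 array. Between Day0 and E17.5, each with 2 arrays, the sets differed by 0.11 ± 0.10, -0.18 ± 0.12 and -0.31 ± 0.14 log2 units and none was called (limma, adjusted p = 0.628, 0.488 and 0.231). The rise and fall around E18.5 therefore rests on that array alone.

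A second high point came at Day7, also with 1 array: 196, 120 and 305, with steps from Day3 of 3.01 ± 0.12, 2.59 ± 0.15 and 2.33 ± 0.18. Together with Orm1 these were the 4 sets called higher at Day7, with 0 lower, against 2.63% and 2.33% of all sets. The values then declined through 87.1, 55.2 and 212 at Day14. At Day21 the arrays had 60.4 and 48.6, 34.3 and 42.9, and 105 and 102. Of the 3 sets only 1419075_s_at was called higher at Day21 than at Day3 (1.16 ± 0.10, limma, adjusted p = 5.77e-07), a comparison of 2-array stages added after the data were seen, in which 4 of 12 sets were higher and 1 lower, against 2.26% and 3.26% of all.

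The adult rise of Saa1 and Saa2 rests on 2 arrays at either stage. The set 1419075_s_at had 309 and 340 in adults, against 60.4 and 48.6 at Day21 (2.58 ± 0.10 log2 units, limma, adjusted p = 1.47e-10). The set 1450788_at had 133 and 167, against 34.3 and 42.9 (1.96 ± 0.12), and Saa2 had 241 and 255, against 105 and 102 (1.26 ± 0.14). No adult array overlapped a Day21 array. In all 6 sets were called higher in adults and 1 lower, against 0.546% and 0.957% of all sets.

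Saa3, which is made in macrophages and other cells as well as in liver, was highest late in gestation. It had 478 and 408 at E17.5, against 151 and 147 at E16.5 (1.57 ± 0.10 log2 units, limma, adjusted p = 3.65e-06), and 503 at E18.5. At Day0 it had 149 and 130, lower than E18.5 by -1.86 ± 0.13 and lower than E17.5 by -1.67 ± 0.10 (adjusted p = 3.39e-07 and 5.73e-08). The fall was thus also called without the E18.5 array. From Day3 to adults the 8 arrays stayed between 81.1 and 160. The mean of 11 macrophage markers was 8.45 log2 units at E17.5, 8.65 at E18.5, 8.58 at Day0 and 9.85 at Day7, and their part in the Saa3 values was not tested.

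Saa4 climbed on both of its sets, dipped around birth and was highest in adults. The set 1419318_at had 278 and 286 at E15.5, against 127 and 122 at E14.5 (1.18 ± 0.16 log2 units), and 658 and 536 at E17.5. At Day0 it had 90.2 and 81.2, lower than the 2 E17.5 arrays by -2.79 ± 0.16 (limma, adjusted p = 2.71e-08). At Day3 it was back at 475 and 329 (2.21 ± 0.16 over Day0), the 1 set called at that step, against 1.19% of all sets called higher and 0.842% lower. It reached 1614 and 1686 at Day21 and 2389 and 3235 in adults.

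The other Saa4 set, 1419319_at, had 374 and 340 at E17.5, 168 at E18.5 and 103 and 110 at Day0. Its fall between E17.5 and Day0 was -1.74 ± 0.14 (limma, adjusted p = 7.85e-07), of which -1.08 ± 0.17 was called at E18.5 and the rest, -0.66, was not called. With Saa3 and 1419318_at it made 3 of 12 sets lower at Day0 than at E17.5, against 0.884% of all. In adults it had 1453 and 1670, against 511 and 581 at Day21 (1.51 ± 0.14). The sets of Saa4 thus placed the fall at different steps, and both placed it between E17.5 and Day0.

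Orm1 and Orm2 encode alpha-1-acid glycoproteins, which bind drugs and other small lipophilic molecules in plasma, and their genes lie on chromosome 4. On the 14 arrays up to E17.5 Orm1 ranged from 17.1 to 20.6 and Orm2 from 18.1 to 21.0, both below the 25th percentile of their array. Orm1 had 56.6 at E18.5, 21.5 and 19.6 at Day0, 73.9 at Day7 and 32.1 at Day14, a series of steps of 1.499, -1.46, 2.03 and -1.201 that each involve a stage with 1 array. With 2 arrays at either stage Day0 and E17.5 differed by 0.04 ± 0.15 (limma, adjusted p = 0.947). At Day21 it had 104 and 79.6, above Day3 with 19.1 and 17.2 (2.33 ± 0.15, adjusted p = 3.88e-08). The Day3 arrays were below the 25th percentile, so the size of this step is uncertain.

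The adult step of Orm1 was the largest of any member at any step. The adult arrays had 2801 and 4317 units, against 104 and 79.6 at Day21, which is 5.26 ± 0.15 log2 units or 38.2-fold (limma, adjusted p = 7.71e-12). Orm2 was called at this step and at none of the other 12, with 99.3 and 112 in adults, against 24.7 and 24.0 at Day21 (2.12 ± 0.10, adjusted p = 1.38e-09). Its Day21 arrays were below the 25th percentile, so the size of the step is uncertain. Every earlier Orm2 array, 23 in all, lay between 17.4 and 32.3. Orm3, another gene of this family and not a member here, was at 4.45 to 4.66 log2 units up to Day21 and at 5.33 in adults. Whether the Orm2 and Orm3 sets also detect Orm1 RNA was not tested. Their dim adult signals therefore cannot be read as rises separate from that of Orm1.

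**Figure D3:**
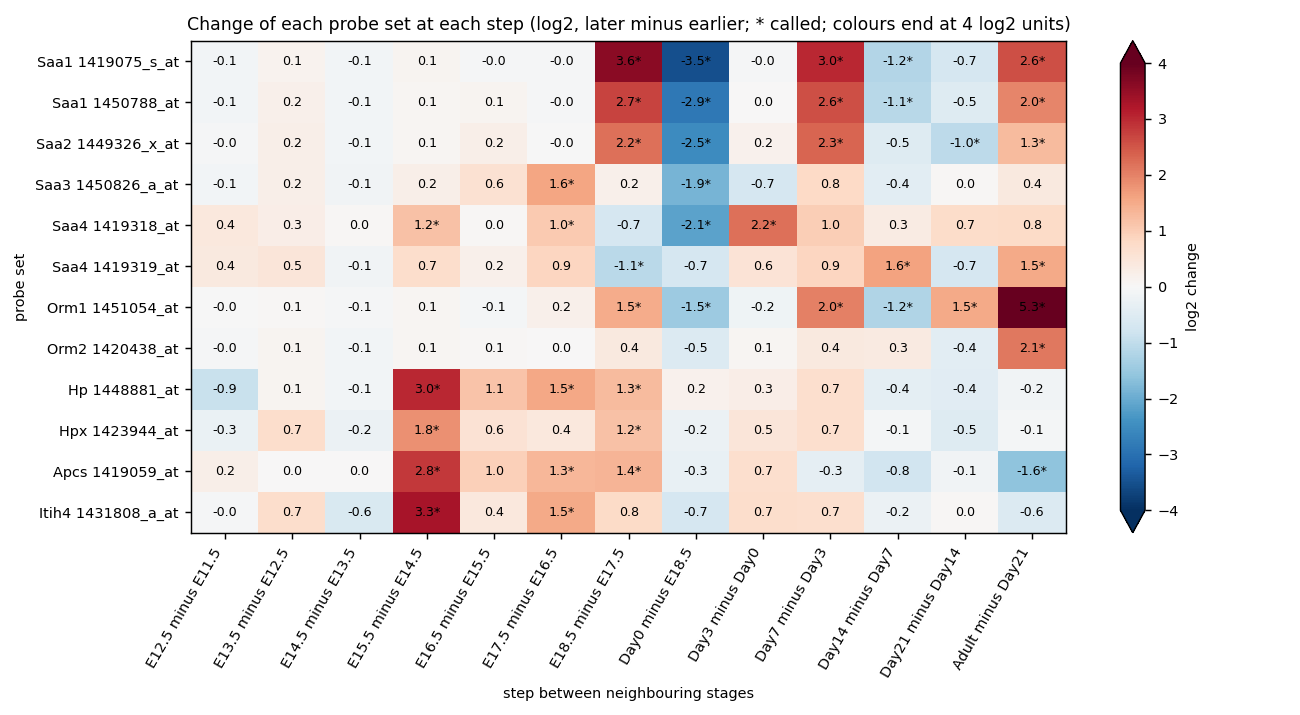
Log2 change (colour and number, later minus earlier stage) of the 12 acute phase sets (vertical) at the 13 steps between neighbouring stages (horizontal), with stars for called sets; colours end at 4 log2 units. The 42 calls lie at E15.5 and at every step from E17.5 on, and steps into or out of E18.5, Day7 and Day14 involve a stage with 1 array.

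Over the 13 steps there were 42 calls, and 28 over the 10 steps that join the 11 stages with 2 arrays. No member was called at E12.5, E13.5, E14.5 or E16.5, where 1.73%, 0.129%, 0.0533% and 0.107% of all sets were called higher and 0.886%, 0.895%, 0.0111% and 0.0355% lower. At Day14, 3 sets were lower (both Saa1 sets and Orm1) and 1 higher (Saa4 1419319_at, 877 against 289 at Day7), against 3.08% and 0.939% of all. With housekeeping genes set level the 3 lower sets were not called, at -0.90, -0.855 and -0.93. At Day21 Orm1 was higher and Saa2 lower than at Day14, against 2.44% and 0.455%. The Saa2 call was lost with housekeeping genes set level and with medians set equal, where the difference was -0.98.

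The question of whether liver after birth differed from fetal liver was asked over pools, with the 6 later stages against the 8 fetal stages. Here the spread includes development within each class. The pools follow in time and are not independent replicates of a class, so the adjusted p below are approximate. Hp was higher after birth by 4.83 ± 1.08 log2 units, Itih4 by 3.82 ± 0.99, Apcs by 3.58 ± 1.09 and Hpx by 3.08 ± 0.66 (limma, adjusted p = 0.0105, 0.0211, 0.0429 and 0.00865). These were 4 of 12 sets higher and 0 lower, against 3.21% and 3% of all sets. From E18.5, with 1 array, to Day0 Hp changed by 0.17, Hpx by -0.22, Apcs by -0.30 and Itih4 by -0.67. From E17.5 to Day0 the changes were 1.45, 0.94, 1.07 and 0.09 in the same order. The class difference thus takes in the climb before birth. Only Hp had no overlap between the classes in its pool means, with values from 5598 to 11075 after birth and 41.0 to 5113 before, as did 3.08% of all sets. Its single arrays did overlap: Day0 replicate 2 had 4535 and adult replicate 1 had 4596, both below the E18.5 array. Apcs lost its call under 11 of 25 other settings, with adjusted p from 0.00757 to 0.116.

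The other 8 sets were not called, with changes from -0.17 for Saa3 to 1.96 for Orm1. Both Saa4 sets, at 1.85 ± 0.71 and 1.51 ± 0.57, were called when the Day0 pool was left out, and 1419075_s_at of Saa1 and the Saa2 set were called when the E18.5 pool was. The median change was 1.68 over the 12 sets and 0.02 over all sets.

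A straight line in embryonic day was fitted across the 8 fetal pools, and its change over the span can exceed the difference between the first and last pool. The adjusted p of this fit are approximate too, since the pools follow in time. By this fit 7 of 12 sets were called higher over the span, against 2.7% of all sets higher and 8.2% lower. The fitted rise was 7.28 ± 0.89 log2 units for Apcs, with pool means of 12.71 at E18.5 and 5.95 at E11.5. It was 7.16 ± 1.198 for Hp, with 12.32 at E18.5 and 6.26 at E11.5. Itih4 had a fitted rise of 6.79 ± 0.87 and Hpx of 4.53 ± 0.52 (limma, adjusted p for the 4 sets from 0.00227 to 0.00634). The fitted rises of the Saa4 sets were 2.85 ± 0.37 and 1.93 ± 0.40 and that of Saa3 was 2.76 ± 0.56 (adjusted p = 0.0028, 0.0144 and 0.013). Saa3 was not called without E18.5, and Saa4 1419319_at not without E11.5. The median fitted change of 14 housekeeping genes was -0.66, and setting them level moved the median over all sets up by 0.54 and the members' count to 11 of 12.

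Across the 6 pools from Day0 to adults no set was called, 0 of 12 against 0% of all 45037 (limma with Benjamini-Hochberg adjustment), though 5309 sets had an unadjusted p under 0.05. The fitted changes over the span, a line in log2(day + 1), were 7.20 ± 1.77 for Orm1, 5.03 ± 0.61 and 4.16 ± 0.58 for Saa4 and -2.44 ± 0.72 for Apcs, with adjusted p from 0.213 to 0.278.

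**Figure D4:**
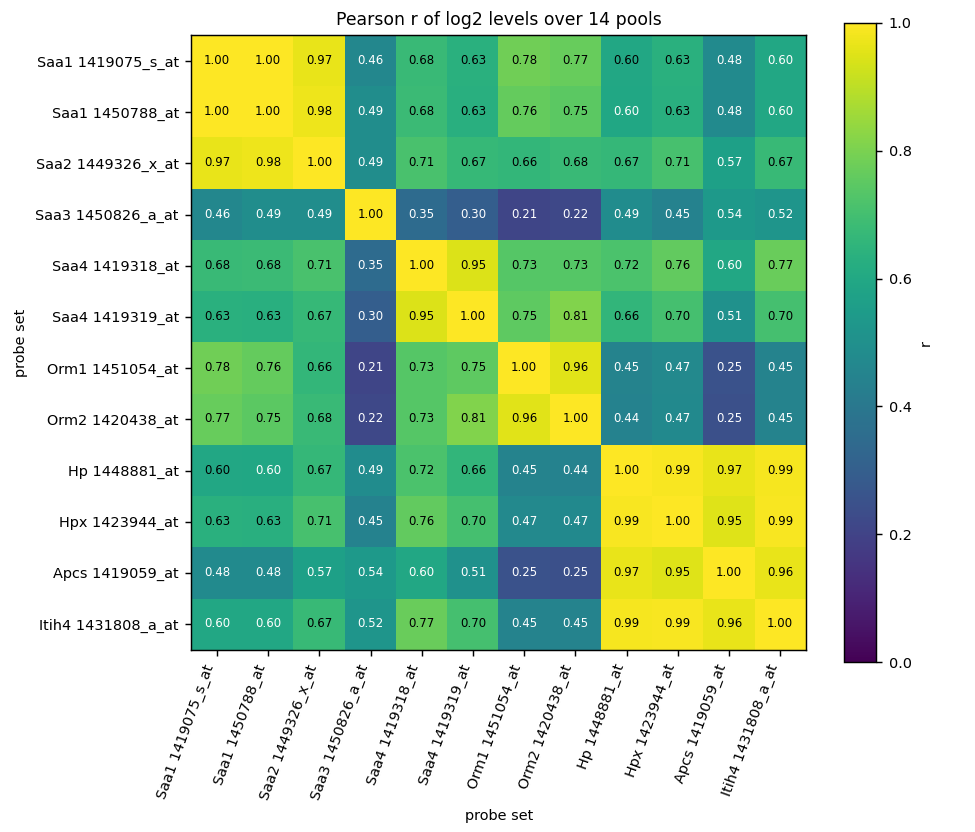
Pearson r between the log2 stage means of the 12 acute phase sets over 14 pools, with sets on both axes and r as colour and number. Hp, Hpx, Apcs and Itih4 form a block at 0.95 to 0.99. The sets of Saa1 and Saa2, which may detect both genes, form a block at 0.968 to 0.997. Saa3 stays at or under 0.54 with every other set.

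The likeness of the courses was described by Pearson's r over the 14 pool means, which share the arrays and the stages and are not independent. Hp, Hpx, Apcs and Itih4 had r of 0.95 to 0.99 with each other. The Saa1 and Saa2 sets had 0.968 to 0.997, the Saa4 sets 0.95 and Orm1 with Orm2 0.96. The Saa1 and Saa2 sets may detect both genes, so their r does not compare separate genes. The r of Orm1 with Orm2 leans on the adult pool, which was far above the others for both. Saa3 was the set least like the others, with r from 0.21 to 0.54.

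Outside the members, the genes most like Hp were Plg (plasminogen), Hsd17b13 and Cp (ceruloplasmin), with r of 0.99. Those most like Itih4 were F2 (prothrombin), Cyp2d26 and F13b, with 0.997 to 0.998. Apcs was most like Lbp, Igfbp1 and Itih3 (0.98 to 0.99), and Hpx most like Cd302, Bhmt and Ctsh (0.994 to 0.996). Orm2 was most like Mup3 and Mup5, major urinary protein genes, and Cyp7b1 (0.97 to 0.99). Orm1 was most like 9130409I23Rik, Bdh2 and Cnmd (0.97 to 0.99). The adult pool was at 11.76 log2 units for Orm1 and 6.72 for Orm2. The nearest other pools after birth were at 6.51 and 5.02, so these r lean on the adult pool. Saa4 was most like Ugt2b35, Car8 and Anks4b (0.96 to 0.97), Saa3 like Aqp8, Trim47 and Selenok (0.88). The genes most like Saa1 (Klhl33, Fam151b and Ccdc89, 0.95 to 0.96) and Saa2 (Tbc1d7, Ccdc89 and Fam151b, 0.97 to 0.98) share 2 names. The r of Saa1 and Saa2 lean in part on the high E18.5 and Day7 pools, with 1 array each.

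**Figure D5:**
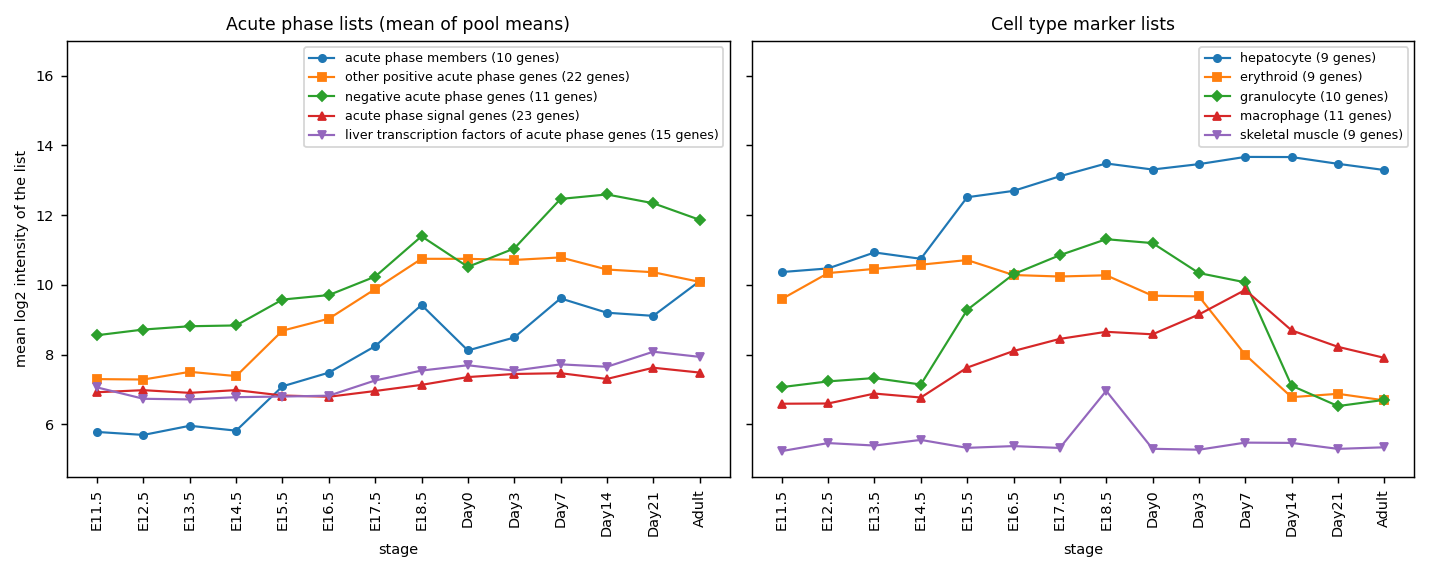
Mean log2 intensity (vertical) of gene lists at the 14 stages (horizontal), acute phase and signal lists on the left and cell type markers on the right, as means over the genes of each list. The 10 members lie at 8.24 at E17.5, 9.42 at E18.5 and 8.12 at Day0, the skeletal muscle list at 5.32, 6.96 and 5.30.

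Other positive acute phase genes moved with the fetal climb. Of 22 measured, 17 were called higher over the fetal span and 0 lower, against 4.17% and 11.6% of all 18193 genes (1 set per gene), with a median fitted change of 3.95 log2 units. The fitted changes were 7.20 for A2m, 7.15 for Lcn2, 7.03 for Cp and 6.10 for Crp (limma). Lcn2 is also a granulocyte gene, and 9 of 10 granulocyte markers rose over the same span, as did all 9 hepatocyte markers and 10 of 11 macrophage markers. At E15.5, 11 of the 22 were higher and 0 lower, against 1.29% and 1.17% of all genes, as were 8 of 9 hepatocyte markers and 8 of 10 granulocyte markers, and the part of these cell types in the members' values was not tested.

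Negative acute phase genes moved the same way: 7 of 11 were called higher over the fetal span and 0 lower, among them Ahsg, Fetub, Serpina7 and F12 with fitted changes of 7.5, 4.99, 2.86 and 2.81. At E18.5 both lists had calls, 8 of 22 positive genes higher and 0 lower, and 5 of 11 negative genes higher and 1 lower, against 2.32% and 1.78% of all genes. Mbl2 (2.64), Ifitm3 (2.33) and Serpina3n (2.32) stood beside Tdo2 (5.19), Fetub (2.27) and Igf1 (2.16). At Day0 the positive genes split, with Hamp (3.64), Serpina3n (2.83) and Cd14 (1.79) higher and A2m (-2.10) lower than at E18.5, 3 and 1 of 22 against 3.62% and 2.25% of all genes. Of the 11 negative genes 1 was higher and 3 were lower at this step. Day0 and E17.5 had 2 arrays each. Between them 6 of 22 positive genes were higher and 0 lower, and 3 of 11 negative genes higher and 1 lower. Of all probe sets 1.89% were higher and 0.884% lower. Among those called higher were Serpina3n (5.15), Hamp (3.95), Fetub (2.60), Tdo2 (2.04), Mbl2 (1.85), Ifitm3 (1.51) and Cd14 (1.46). The negative gene called lower was Serpina6, at 6.5 log2 units at Day0, against 11.6 at E17.5. A2m (-0.93) and Igf1 (-0.71) were not called.

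The cytokine genes Il6, Tnf and Osm each varied by less than 1 log2 unit. Il6 lay between 4.01 and 4.19 log2 units over the 14 stages, Tnf between 6.78 and 7.15 and Osm between 5.84 and 6.20. The Il6 means were below the 25th percentile of the arrays at every stage, so its level and any change in it are uncertain. Of 23 genes of the signal list 2 were higher at E18.5 than at E17.5, Il1rap (1.34) and Stat3 (1.11), and 0 lower. Of all genes 2.32% were higher and 1.78% lower. Both were also called higher at Day0 than at E17.5 (1.27 and 1.03), as was Il6st, with 7.85 log2 units at Day0, against 6.15 at E17.5. These were 3 of 23 with 0 lower, against 1.89% and 0.884% of all probe sets. Socs3, a feedback inhibitor of cytokine signals, had 5.91 log2 units at E18.5, against 6.54 at E17.5. The part of these genes in the members' values was not tested. After birth Il1rap (4.24), Il6st (1.85), Lifr (1.31) and Il6ra (1.23), all receptor genes, were higher than in fetal pools, 4 of 23 with 0 lower, against 4.9% and 4.33% of all genes.

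Of 15 liver transcription factors 6 were higher after birth than before, with Nr1h4 (2.50), Creb3l3 (1.75), Ppargc1a (1.69) and Cebpb (1.41) leading, and 0 lower, against the 4.9% and 4.33% of all genes. Around birth the C/EBP genes went different ways. Cebpa had 8.04 log2 units at Day0, against 10.23 at E18.5 and 9.46 at E17.5, and was called lower than either (-2.19 and -1.42), while Cebpd had 8.93, against 7.06 and 7.41 (1.88 and 1.52). Of 9 genes measured from a list of haemoglobin and haem clearance partners, 2 were higher after birth and 1 lower, against the same 4.9% and 4.33%. The median change of that list was 0.22. Among these partners of Hp and Hpx, the haemoglobin-haptoglobin receptor gene Cd163 was higher after birth by 1.39 and the hemopexin receptor gene Lrp1 by 1.40. Cd163 lay between 4.41 and 4.62 log2 units from E11.5 to E16.5, near the dim end of the arrays, so its fold is uncertain. Of 8 high-density lipoprotein genes 7 were higher after birth and 0 lower, against the same 4.9% and 4.33%, led by Pon1 (5.75), Lcat (2.96) and Apoe (2.52).

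Other cell types moved along with these classes. Of 9 erythroid markers 7 were lower after birth than before and 0 higher, against 4.33% and 4.9% of all genes. The mean of these markers was 10.27 log2 units at E18.5, 9.69 at Day0 and 6.69 in adults. Of 5 adipocyte markers 0 were called between the classes and 1, Fabp4, was called higher over the fetal course and at E12.5, Day0 and Day7, and lower at Day3, Day14 and Day21 (8.39 log2 units at E18.5, 9.80 at Day0, 9.70 at Day7), while the defining genes Adipoq (4.17 to 4.36) and Lep (4.36 to 4.58) stayed dim at every stage. At the adult step, where 0.61% of all genes were called higher and 1.19% lower, 0 of 9 hepatocyte, 0 of 10 granulocyte and 1 of 11 macrophage markers were called, the last lower (Marco, -1.62). Of 9 erythroid markers 1 was higher (Alas2, 1.10) and 1 lower (Slc4a1, -1.08), and of 8 stellate and mesenchymal markers 1 was lower (Col3a1, -2.99). The part of these cell types in the adult values of the members was not tested.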

How the data were processed

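The authors deposited 1 table of 25 arrays and 45101 probe sets, whose values are intensities on a linear scale. Per the submitters' processing notes the tool was RMA, with version and scaling not given in the sources. The planned tests assumed log2 values; log2 of each intensity was taken here, with no pseudocount, and 64 control sets were left out. Array medians lay between 5.41 and 5.53 log2 units and technical repeats correlated at 0.987 to 0.996; arrays carry no depth, and their number limits precision.

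Class and time course fits used the mean of each of 14 pools, with time after birth as log2(day + 1), and steps used all 25 arrays with 1 mean per stage. All used limma 3.58.1 (lmFit, eBayes) in R 4.3.3, with Benjamini-Hochberg adjustment over all sets, calls at 0.05 and at least 1 log2 unit. The fits were also run on simulated data with independent noise around level means. Stages that follow in time need not behave so, and that run does not bear on the p-values given here. A listed gene was represented by its set of highest mean, which gave 18193 genes. Named genes were the members, up to 4 called genes of largest change per list, a fixed set of regulators, and the 3 genes of highest r with each member; Itih family, cytokine and marker genes beyond these, and genes named for a step, were picked after their values were seen. Members and lists were chosen with earlier results of these data known. Promoters are from RefSeq (GRCm38.p6), with 8 of 10 members matched. Labels give no batch or scan date. Other scalings, filters and left-out arrays and pools were tried.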

Additional observations from a re-analysis of the deposited data

Results flagged for a closer look

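In 7 of 24 groups of pools (12 sets, fetal and postnatal pools) 1 pool lay far from the rest. The rule flags about 5% of groups of independent draws from 1 normal distribution. Stages in order are not such draws and sets share pools, so the count shows no excess over chance. E18.5, with 1 array, was far above the other 7 fetal pools for Saa1 1419075_s_at (8.15 log2 units, nearest other pool 4.61), Saa1 1450788_at (7.16, nearest 4.52), Saa2 (8.26, nearest 6.06), Orm1 (5.82, nearest 4.32) and Orm2 (4.77, nearest 4.38). The Orm2 value lay below the 25th percentile of the E18.5 array, and the Orm2 step from E17.5 was not called. The adult pool, with 2 arrays, was far above the other 5 pools after birth for Orm1 (11.76, nearest 6.51) and Orm2 (6.72, nearest 5.02).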

How the results depend on the processing

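With housekeeping genes set level the fetal course gave 11 member calls in place of 7, and over all sets 5047 higher and 1661 lower in place of 1218 and 3694. The higher and lower calls over all sets also shifted at E12.5 (1504 and 93 in place of 779 and 399), E13.5 (187 and 89 in place of 58 and 403), E15.5 (594 and 278 in place of 377 and 508), E18.5 (545 and 1152 in place of 855 and 751), Day0 (995 and 1050 in place of 1342 and 798), Day3 (758 and 272 in place of 536 and 379), Day7 (666 and 1617 in place of 1185 and 1049) and Day14 (363 and 723 in place of 423 and 1389), and for Day0 minus E17.5 (549 and 745 in place of 850 and 398) and Day21 minus Day3 (1250 and 1217 in place of 1017 and 1470). The members' calls over the steps again numbered 42, but the Day14 calls of both Saa1 sets and Orm1 and the Day21 call of Saa2 were lost and others gained. Quantile normalisation ended the E18.5 calls of Hp, Hpx and Apcs. The postnatal course gave 1 and 1 over all sets in place of 0. Leaving out dim sets gave 3 calls at birth and 26 over the steps, since it drops Saa1 and Orm sets, and using the adjusted p alone gave 65 over the steps. With E17.5 in place of E18.5 the birth step was 0.11 for Saa1 1419075_s_at and 0.0369 for Orm1, neither called, and 1.07 for Apcs, which was called. Replicate numbers share only a number by the labels. Of 55 pairs of stages 37 had r over 0.1, from -0.56 to 0.70 with a median of 0.36. Hpx and Itih4 were each higher on replicate 1 at 10 of 11 stages, and Hp and Apcs at 9. The arrays of E18.5, Day7 and Day14 are all labelled replicate 1, so these stages are set against means that include replicate 2. With the replicate block the birth step gave 6 calls and the steps 43. Leaving out 1 pool or array gave 3 to 6 calls after birth against before, 6 to 7 over the fetal course, 0 to 0 over the postnatal course, 6 to 6 at birth and 39 to 45 over the steps. Saa1 and Orm sets were near the dim end of the array before E18.5, at Day0 and at Day3, and Orm2 also at E18.5, Day7 and Day21, so folds against those stages are uncertain.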
